A study of Mus musculus with 6 samples.

Results

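Metallothioneins and zinc transporters were examined as a group of 8 genes among the 21512 genes measured in whole mouse liver. The group comprised the metallothioneins Mt1 and Mt2, the zinc-sensing transcription factor Mtf1, the exporters Slc30a1 and Slc30a10, and the importers Slc39a4, Slc39a14 and Slc39a8. They were taken by gene symbol, all 8 were found, and all 8 passed the filter on low values. The group was chosen because Mt2 was higher in all 3 anti-PD-1 libraries than in the controls, so the difference between the groups is given here as a description and not as a test.

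The samples were livers of 6 C57BL/6J mice, all of which received a high-fat diet and carbon tetrachloride, a hepatotoxin, over 12 weeks as a model of steatohepatitis with fibrosis. During that time 3 mice were given an antibody against PD-1, an inhibitory receptor of activated T cells, and 3 mice an isotype control antibody, once every 3 days. No liver without diet and toxin enters the comparison, and the labels used here give neither sex nor age. RNA came from whole liver, so fewer cells of a type and less RNA per cell cannot be told apart.

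Metallothioneins are small cysteine-rich proteins that bind zinc, copper and cadmium and buffer free zinc in the cytosol. Their transcription is driven by metal-responsive transcription factor MTF1, which binds metal response elements when zinc rises, and in liver also by glucocorticoids and by interleukin-6 during the acute-phase response. Transporters of the Slc30 family move zinc out of the cytosol, and those of the Slc39 family move it in. Slc39a14 carries zinc into hepatocytes during inflammation, and Slc39a14, Slc39a8 and Slc30a10 also carry manganese.

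Mt1 and Mt2 lie side by side on chromosome 8, with start sites 6471 bases apart in GRCm38.p6. Their promoters are shown because both genes ranked the libraries in the same order, and that of Slc30a1 because it is a known MTF1 target whose level did not follow them. Each window runs from 250 bases before to 50 bases after the RefSeq start, on the plus strand, and capitals mark the core of the metal response element, TGCACNC or TGCGCNC on either strand. The sequences are RefSeq's (GRCm38.p6), whereas the submitters' processing notes name GRCm39 for the expression values.
Mt1, chr8:94178839-94179138: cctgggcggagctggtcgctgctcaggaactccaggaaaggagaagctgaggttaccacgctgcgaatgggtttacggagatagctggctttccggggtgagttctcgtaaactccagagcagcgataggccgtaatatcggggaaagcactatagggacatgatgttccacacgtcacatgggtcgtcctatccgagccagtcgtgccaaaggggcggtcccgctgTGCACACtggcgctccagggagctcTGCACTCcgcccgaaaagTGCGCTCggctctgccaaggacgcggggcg
Mt2, chr8:94172368-94172667: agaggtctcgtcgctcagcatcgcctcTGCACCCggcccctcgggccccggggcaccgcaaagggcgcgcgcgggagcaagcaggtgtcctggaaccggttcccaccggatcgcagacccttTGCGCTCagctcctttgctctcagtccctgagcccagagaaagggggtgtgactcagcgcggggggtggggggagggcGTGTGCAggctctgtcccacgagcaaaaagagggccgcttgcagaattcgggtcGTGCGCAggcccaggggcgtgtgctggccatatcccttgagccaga
Slc30a1, chr1:191906531-191906830: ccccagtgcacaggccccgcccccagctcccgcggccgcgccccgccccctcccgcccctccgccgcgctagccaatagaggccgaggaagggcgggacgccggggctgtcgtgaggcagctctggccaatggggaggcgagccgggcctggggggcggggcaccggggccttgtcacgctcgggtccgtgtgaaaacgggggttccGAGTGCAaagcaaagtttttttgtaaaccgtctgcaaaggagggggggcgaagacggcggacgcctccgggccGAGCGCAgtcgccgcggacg

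The Mt1 window held 3 such cores, all on the plus strand, and the Mt2 window held 4, of which 2 were on each strand. The Slc30a1 window held 2. Of 32851 promoter windows of the same length, 25.7% held at least 1 core, 7.11% at least 2, 1.97% at least 3 and 0.517% at least 4. Windows for 6 of the 8 genes were in the table used. Slc30a10 had 3 matches, of which 2 overlapped on opposite strands, Mtf1 had 0, and the windows of the 2 Slc39a8 starts had 0 and 1. The core of the antioxidant response element, TGACNNNGC on either strand, matched once in the Mt2 window, once in the Slc30a1 window and once in 1 of the Slc39a8 windows, without overlapping a metal response core in any of them, and 12.4% of all windows held it. The palindrome TTCNNNGAA, a STAT recognition pattern, matched none of the windows of these genes, against 8.3% of all windows. A match is a string of letters and not a measured binding site.

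The levels below are CPM, the reads of a gene scaled to the size of its library, with that size adjusted by a trimmed mean of ratios between libraries (TMM). Recovered depth was 15528364 to 20779319 reads per library. Fold changes are limma estimates on log2(value + 0.5) with their standard error (SE), positive where anti-PD-1 was higher. At an adjusted p under 0.05 over 13990 tested genes, 0 of the 8 genes passed, with a background of 0.00715% of all tested genes. At an unadjusted p under 0.05 there were 4 of 8, against 11.3% of all tested genes. edgeR and DESeq2 on recovered reads also called 0 of the 8, against 0.00715% and 1.83% of all tested genes. Each put 3 of the 8 at an unadjusted p under 0.05, against 1624 (edgeR) and 1598 (DESeq2) of the 13990 tested genes. The 3 anti-PD-1 values lay wholly above or below the 3 control values for 4 of the 8 genes, against 17.1% of all tested genes (3 higher, background 7.13%, and 1 lower, background 9.98%). Since the group was picked on this comparison, nothing is read from these counts.

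Mt1 was at 123, 171 and 213 in anti-PD-1 replicates 1 to 3, against 11.8, 59.1 and 110 in isotype control replicates 1 to 3. All 3 anti-PD-1 livers lay above all 3 controls, with anti-PD-1 replicate 1 only a little above control replicate 3 and control replicate 1 far under the rest. The log2 fold change was 1.93 ± 0.70 (SE), and 1.03 without isotype control replicate 1.

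Mt2, which encodes the second widely expressed metallothionein, was at 35.1, 45.4 and 67.9 in anti-PD-1 livers, against 0.81, 8.71 and 19.3 in isotype controls. The groups did not overlap, and control replicate 1 was far under the rest. The value of control replicate 1 rests on 15 reads, whereas the other libraries had 161 to 1313. The log2 fold change was 2.96 ± 0.86 (SE), and 1.84 without isotype control replicate 1. On recovered reads it was 2.36 by edgeR and 2.37 by DESeq2. Means were 49.5 ± 16.8 after anti-PD-1 and 9.59 ± 9.25 in controls (SD, n = 3 each).

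**Figure D1:**
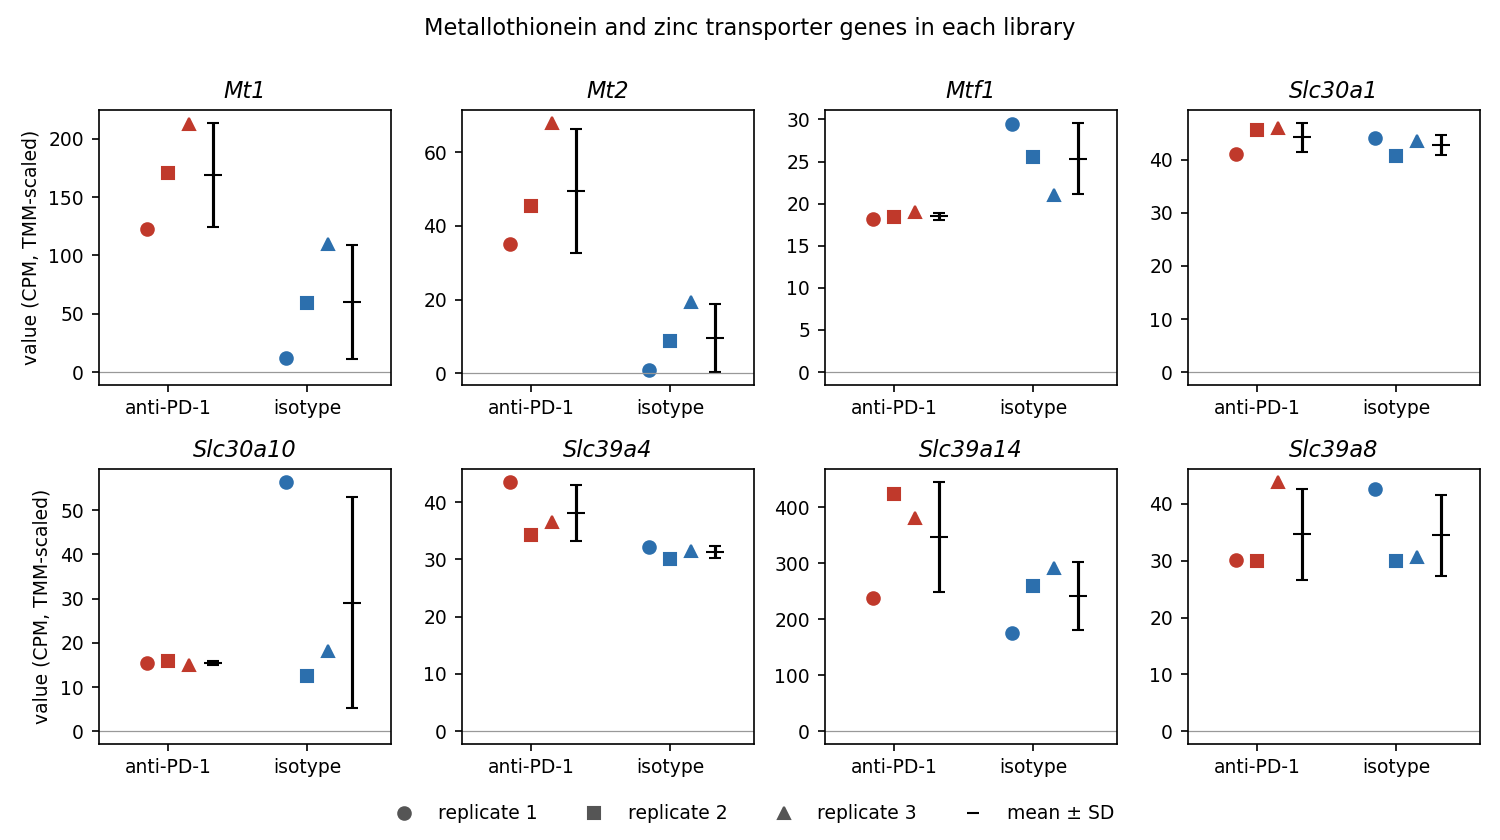
Level of each of the 8 genes in every library (CPM, TMM-scaled, axis from 0), with anti-PD-1 mice in red, isotype controls in blue, a symbol for each replicate number, and the mean ± SD of 3 mice in black. The groups are apart for Mt1, Mt2, Mtf1 and Slc39a4, and isotype control replicate 1 is the lowest library for Mt1 (11.8) and the highest for Slc30a10 (56.4).

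The spread within a group was large for both metallothioneins. Among controls the highest library exceeded the lowest 15.1-fold for Mt2 and 8.96-fold for Mt1 on value + 0.5, whereas the median over all tested genes was 1.26-fold. Among anti-PD-1 livers these ratios were 1.92-fold for Mt2 and 1.73-fold for Mt1, and the median over all tested genes was 1.29-fold. The 6 libraries had the same rank order for Mt1 and for Mt2, from control replicate 1 at the bottom to anti-PD-1 replicate 3 at the top.

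Mt2 differed more between the groups than Mt1 did. It made up 22.2, 20.98 and 24.2% of the reads of Mt1 and Mt2 together in anti-PD-1 replicates 1 to 3. In isotype controls 1 to 3 it made up 6.41, 12.8 and 14.9%. The 95% Wilson intervals ran from 19.6 to 25.4% over the anti-PD-1 libraries and from 3.92 to 16.3% over the controls, covering counting error only, and the groups did not overlap. The log2 ratio of Mt2 to Mt1 was -1.79 ± 0.13 after anti-PD-1 and -3.05 ± 0.72 in controls (SD, n = 3 each), a difference of 1.26. The annotated transcripts of these genes (GENCODE M21) shared no run longer than 20 bases. This ratio was examined with the Mt2 difference already known, so it is a description too.

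**Figure D2:**
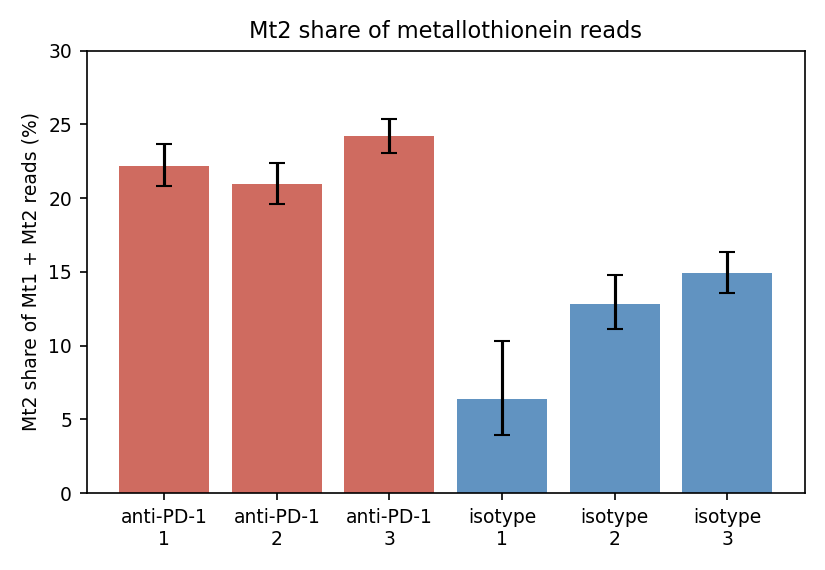
Share of Mt2 among the reads of Mt1 and Mt2 together in each library (percent, bars from 0), with 95% Wilson intervals that cover counting error only. The 3 anti-PD-1 bars, at 20.98 to 24.2%, stand above the 3 isotype control bars, at 6.41 to 14.9%.

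Mtf1, the gene of the factor that senses zinc and switches metallothionein genes on, was at 18.2, 18.4 and 19.0 in anti-PD-1 livers, against 29.5, 25.5 and 21.01 in isotype controls. All 3 anti-PD-1 values lay under the controls and close to each other. The log2 fold change was -0.43 ± 0.14 (SE), and -0.32 without isotype control replicate 1, the library with the most Mtf1. The controls with the most Mtf1 had the least Mt1 and Mt2.

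The exporters did not follow the metallothioneins. Slc30a1, which encodes the plasma membrane zinc exporter ZnT1, was at 41.1, 45.5 and 46.1 in anti-PD-1 livers, against 44.1, 40.7 and 43.5 in isotype controls. Anti-PD-1 replicate 1 lay within the control range and the other two a little above it, and the log2 fold change was 0.05 ± 0.10 (SE). Slc30a10, whose product exports manganese, was at 15.5, 15.98 and 15.1 in anti-PD-1 livers, against 56.4, 12.6 and 18.1 in isotype controls. A single library, control replicate 1, set its difference: the log2 fold change was -0.59 ± 0.47 (SE) with all libraries and 0.04 without that one.

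Among the importers, Slc39a14, which encodes the hepatocyte zinc and manganese importer ZIP14, was at 237, 425 and 381 in anti-PD-1 livers, against 175, 260 and 292 in isotype controls. Anti-PD-1 replicate 1 lay within the control range and the other two above it, with a log2 fold change of 0.51 ± 0.26 (SE). No label pairs the mice, but between libraries of the same replicate number the anti-PD-1 liver was higher in all 3 cases. With that number as a block the SE was 0.11, which rests on a pairing read from these same data. Leaving out the first control library gave 0.29, and leaving out the first anti-PD-1 library gave 0.76. Slc39a4, which encodes the importer ZIP4, best known from intestinal zinc uptake, was at 43.6, 34.2 and 36.5 in anti-PD-1 livers, against 32.3, 30.1 and 31.6 in isotype controls. Its groups did not overlap, by a narrow margin, and the log2 fold change was 0.27 ± 0.12 (SE). Without anti-PD-1 replicate 1 it was 0.17. Slc39a8, which encodes the zinc and manganese importer ZIP8, was at 30.1, 30.03 and 43.9 in anti-PD-1 livers, against 42.7, 30.03 and 30.7 in isotype controls. Each group had 1 high library, and the log2 fold change was 0.003 ± 0.195 (SE).

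**Figure D3:**
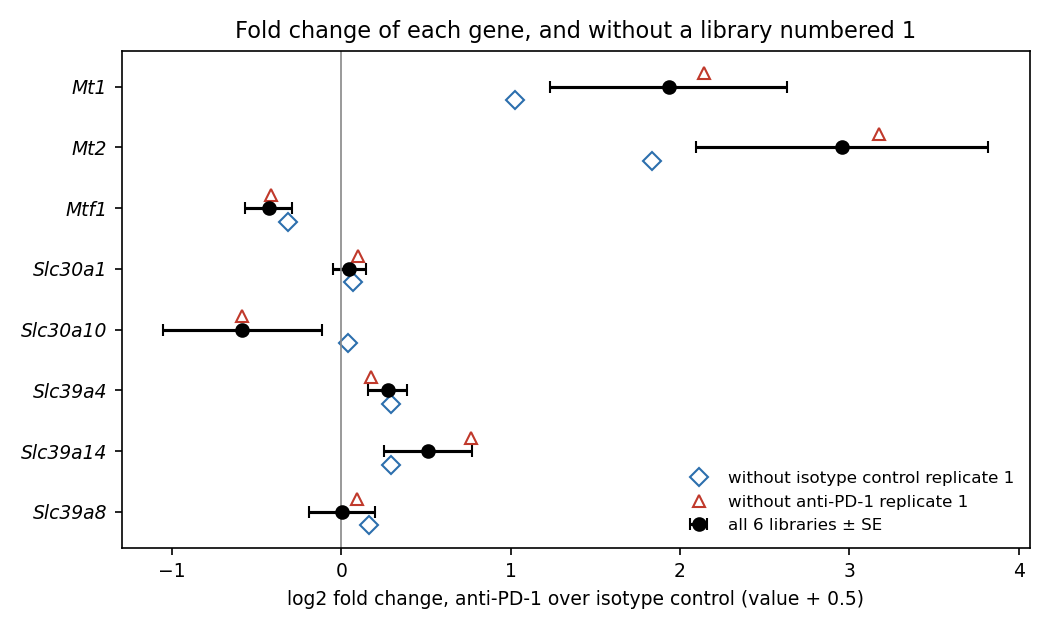
Log2 fold change of anti-PD-1 over isotype control for the 8 genes (value + 0.5), as black points with SE bars, with blue diamonds where isotype control replicate 1 was left out and red triangles where the first anti-PD-1 library was. The blue diamonds stand at 1.03 for Mt1 and 1.84 for Mt2, still above 0, and at 0.04 for Slc30a10, whose black point is at -0.59.

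Per kilobase of the principal annotated transcript (GENCODE M21), Mt1 had the highest mean level of the 8 genes in both treatments, at 307 ± 81.7 after anti-PD-1 and 110 ± 89.3 in isotype controls (CPM per kilobase, SD, n = 3 each). In anti-PD-1 livers Mt2 came next at 96.8 ± 32.9, then Slc39a14 at 70.6 ± 19.9, and these means did not differ beyond their spread. Within each anti-PD-1 liver Mt2 was above Slc39a14, narrowly so in replicate 2 (88.9 against 86.2). In control livers Mt1 was followed by Slc39a14 at 49.2 ± 12.3, within the spread of Mt1, and then by Mt2 at 18.8 ± 18.1, a spread that takes in the transporters named next. Its 3 control livers had 1.58, 17.05 and 37.7, and in control replicate 1 it was the lowest of the 8 genes. Slc39a4, Slc39a8 and Slc30a1 followed at 13.9 ± 1.77, 9.81 ± 2.26 and 8.44 ± 0.53 after anti-PD-1 and at 11.4 ± 0.40, 9.76 ± 2.01 and 8.16 ± 0.35 in controls. The means of Slc39a8 and Slc30a1 did not differ beyond their spread in either group. Within libraries Slc39a8 was above Slc30a1 in every control and in anti-PD-1 replicates 1 and 3, and under it in anti-PD-1 replicate 2. Slc30a10 and Mtf1 were lowest after anti-PD-1, at 2.66 ± 0.08 and 2.43 ± 0.06, and had means of 4.98 ± 4.09 and 3.32 ± 0.56 in controls. The control mean of Slc30a10 rests on replicate 1, since the 3 control livers had 9.67, 2.15 and 3.11, against 3.87, 3.35 and 2.75 for Mtf1. The metallothionein transcripts are short, 549 bases for Mt1 and 511 for Mt2.

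No other zinc transporter passed the test. Of 19 other Slc30 and Slc39 genes, 18 were in the table, and 14 passed the filter on low values. None of the 14 passed the limma test or was called by edgeR or DESeq2, and 1 had an unadjusted p under 0.05 (background 11.3%). That gene was Slc39a7, which releases zinc from the endoplasmic reticulum, at 48.2, 49.6 and 46.7 in anti-PD-1 livers, against 60.8, 54.3 and 64.5 in isotype controls (limma adjusted p = 0.343). The groups were also apart for Slc30a4 and Slc39a9, lower after anti-PD-1, and for Slc39a13, higher after anti-PD-1, with log2 fold changes of -0.22 ± 0.11, -0.14 ± 0.09 and 0.23 ± 0.14 (SE). With Slc39a7 that made 4 of 14 genes apart, against 17.1% of all tested genes. The median log2 fold change was 0.03 for the 5 exporters tested and -0.14 for the 9 importers tested, against 0.003 over all tested genes. Slc30a3, Slc30a8, Slc39a2 and Slc39a12 were under the filter, and Slc30a2, Mt3 and Mt4 were not analysed here.

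Other genes linked to MTF1 or to metal response had log2 fold changes of both signs, positive for 2 of the 8 tested. None of the 8 passed the limma test, 1 was higher and 1 lower at an unadjusted p under 0.05 (background 5.04% higher and 6.24% lower), and their median log2 fold change was -0.10. Selenow, which encodes a small selenoprotein, was at 45.7 ± 3.38 after anti-PD-1 and 36.2 ± 4.50 in isotype controls (limma adjusted p = 0.374). Gclc, the catalytic subunit of glutamate-cysteine ligase and so a step of glutathione synthesis, was at 204 ± 10.5 after anti-PD-1 and 275 ± 57.7 in isotype controls (limma adjusted p = 0.402). Csrp1 was at 23.6 ± 5.85 after anti-PD-1 and 18.5 ± 2.18 in isotype controls (limma adjusted p = 0.572).

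Genes of the other inputs that can act on metallothionein transcription were counted in the same fit, with lists that share a few genes. The lists here and in the paragraphs below were chosen with earlier results of these data known. Their counts, also of signs, are therefore not independent evidence. Of 28 acute-phase and interleukin-6 genes, none passed by limma or edgeR, 2 were higher and 0 lower at an unadjusted p under 0.05 (background 5.04% and 6.24%), and the median log2 fold change was 0.15. Stat3, the transcription factor downstream of interleukin-6, was at 132, 146 and 133 in anti-PD-1 livers, against 102, 89.0 and 104 in isotype controls (limma adjusted p = 0.232), and was the 1 gene of this list called by DESeq2 (adjusted p = 0.00344). Cebpd, an acute-phase transcription factor, was at 15.002 ± 1.67 after anti-PD-1 and 8.11 ± 4.86 in isotype controls (limma adjusted p = 0.419). Serpina3n was at 376 ± 36.0 after anti-PD-1 and 322 ± 26.9 in isotype controls (limma adjusted p = 0.528).

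Of 15 glucocorticoid-response genes tested, none passed by limma or edgeR, 4 were higher and 2 lower at an unadjusted p under 0.05 (background 5.04% and 6.24%), and the median log2 fold change was 0.39. Zbtb16, a glucocorticoid-induced transcription factor, was at 25.2, 73.2 and 57.2 in anti-PD-1 livers, against 13.2, 15.96 and 16.04 in isotype controls (limma adjusted p = 0.232). It was called by DESeq2 (adjusted p = 4.15e-05), and by limma without anti-PD-1 replicate 1 (adjusted p = 0.0132). Tsc22d3, which encodes the glucocorticoid-induced leucine zipper protein GILZ, lay the other way, at 44.9, 28.5 and 34.1 in anti-PD-1 livers, against 87.8, 52.0 and 51.9 in isotype controls (limma adjusted p = 0.304). Dusp1, a phosphatase that turns off MAP kinases, was also lower, at 34.7 ± 2.69 after anti-PD-1 and 48.3 ± 7.06 in isotype controls (limma adjusted p = 0.282). The list thus held genes of both directions, with positive log2 fold changes for 11 of the 15 (49.5% of all tested genes had negative ones).

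Of 12 immediate early and fasting-linked hepatic genes, none passed by limma or edgeR, 7 were higher and 1 lower at an unadjusted p under 0.05 (background 5.04% and 6.24%), and the median log2 fold change was 0.87. For 7 of the 12 the anti-PD-1 values lay wholly above the controls, against 7.13% of all tested genes. Nfil3, Atf3 and G6pc had the smallest p-values. Atf3, a stress-induced transcription factor, was at 13.8, 22.4 and 15.004 in anti-PD-1 livers, against 7.66, 5.25 and 8.60 in isotype controls (limma adjusted p = 0.218). DESeq2 called these 3 genes, with adjusted p from 2e-08 for Nfil3 to 0.00228 for G6pc. With the replicate number as a block limma called Nfil3 (adjusted p = 0.0298), whose log2 fold change was 1.37 ± 0.19 (SE), as it did with anti-PD-1 replicate 1 left out (adjusted p = 0.0244). The block rests on a pairing read from these same data. Nfil3, Atf3 and G6pc were put on the list with earlier results for them in these samples known, so its count is not independent evidence.

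Of 16 genes of the NRF2 and oxidative-stress list, 14 had negative log2 fold changes (49.5% of all tested genes did), none passed by limma or edgeR, 0 were higher and 4 lower at an unadjusted p under 0.05 (background 5.04% and 6.24%), and the median was -0.13, against 0.003 over all tested genes. Nfe2l2, which encodes NRF2 itself, was at 58.7, 47.3 and 34.7 in anti-PD-1 livers, against 123, 84.5 and 72.5 in isotype controls (limma adjusted p = 0.255). It was called by DESeq2 (adjusted p = 0.0154) and by limma with the replicate number as a block (adjusted p = 0.0385). That block rests on a pairing read from these same data. Keap1, the adaptor through which NRF2 is degraded, was at 32.8 ± 1.26 after anti-PD-1 and 40.5 ± 0.47 in isotype controls (limma adjusted p = 0.309), and Gsta1, a glutathione transferase, at 4.12 ± 2.96 after anti-PD-1 and 9.13 ± 3.56 in isotype controls (limma adjusted p = 0.385).

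Of 16 copper and manganese genes, none passed by limma, edgeR or DESeq2, 1 was higher and 2 lower at an unadjusted p under 0.05 (background 5.04% and 6.24%), and the median log2 fold change was -0.10. Steap4, a metalloreductase that reduces iron and copper, was at 223 ± 39.1 after anti-PD-1 and 164 ± 23.1 in isotype controls (limma adjusted p = 0.363). Slc11a2, the divalent metal importer DMT1, was at 21.5 ± 3.10 after anti-PD-1 and 27.9 ± 2.73 in isotype controls (limma adjusted p = 0.385). The copper chaperone Atox1 was at 37.3 ± 2.70 after anti-PD-1 and 47.1 ± 7.02 in isotype controls (limma adjusted p = 0.419).

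The genes whose levels most resembled the metallothioneins were found by Pearson correlation of log2 values over the 6 libraries, which is a description across few samples that share the group difference. For Mt2 they were the gene model Gm48942, Git1, Pim3, Btg2 and Pde4b (r from 0.993 to 0.996), and for Mt1 they were Git1, Maff, Coq10b, Lpin1 and Pim3 (r from 0.991 to 0.995). Btg2, an antiproliferative early-response gene, was at 278, 415 and 463 in anti-PD-1 livers, against 50.1, 133 and 230 in isotype controls. Lpin1, a phosphatidate phosphatase and coactivator of fatty acid oxidation genes, was at 450, 872 and 989 in anti-PD-1 livers, against 71.5, 315 and 529 in isotype controls. Pim3, which encodes a serine/threonine kinase, was at 178, 270 and 316 in anti-PD-1 livers, against 28.7, 95.7 and 137 in isotype controls. Maff, a small Maf transcription factor, was at 17.3, 22.2 and 29.1 in anti-PD-1 livers, against 1.67, 9.74 and 19.8 in isotype controls. In each of these genes control replicate 1 was far below the rest. Git1 shared the order of the libraries but its level differed little, at 13.8 to 14.2 in anti-PD-1 livers and 11.8 to 13.6 in isotype controls. Among the other zinc genes the correlation with Mt2 was 0.85 for Slc39a14, 0.50 for Slc39a4, 0.23 for Slc30a1, -0.28 for Slc39a8, -0.81 for Slc30a10 and -0.95 for Mtf1. The value for Slc30a10 leans on control replicate 1, at 56.4 against 12.6 to 18.1 in the other libraries. It was not computed without that library, so Slc30a10 is not read as opposite to Mt2.

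**Figure D4:**
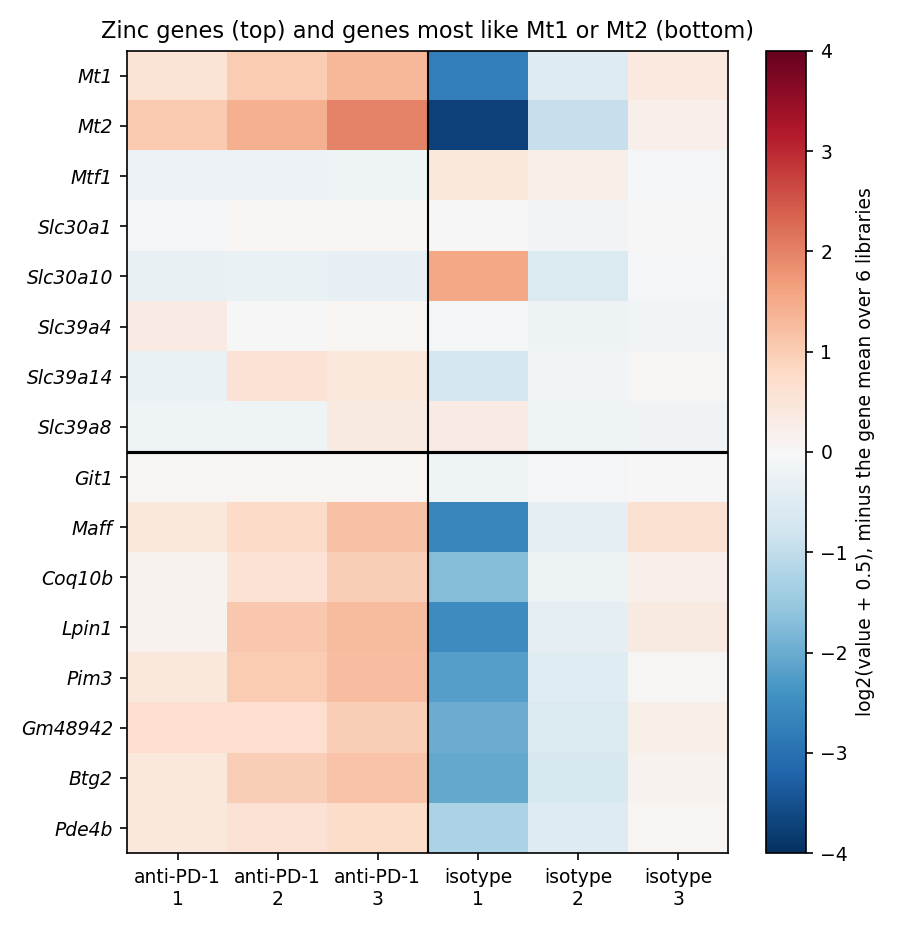
Log2(value + 0.5) of each gene in each library minus the gene's mean over the 6 libraries (colour scale from -4 to 4), for the 8 zinc genes above the line and the 8 genes most like Mt1 or Mt2 below it. Isotype control replicate 1 has the lowest value of Mt1 and Mt2 and of all 8 genes below the line.

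The libraries also differed in cell-type markers. Summed T cell markers were at 42.2, 7.19 and 9.67 in anti-PD-1 livers, against 4.26, 3.79 and 3.07 in isotype controls. Of the 8 markers, 5 were apart between the groups, all higher after anti-PD-1. Of these 5, Cd3e and Cd8a passed the filter on low values and the other 3 were under it. The background of 7.13% higher covers only genes past the filter, so the 5 of 8 cannot be set against it. A gene can also pass the filter through the 3 anti-PD-1 libraries alone, so nothing is read from this count. Summed monocyte and macrophage markers were at 870, 149 and 237 in anti-PD-1 livers, against 270, 161 and 136 in isotype controls. All 3 anti-PD-1 livers had a higher T cell marker sum than any control, and also more Mt1 and Mt2. Both go with the treatment groups, so a link between them cannot be told apart from treatment and was not tested. Among the anti-PD-1 livers, replicate 1 had the most T cell and monocyte marker RNA and the least Mt1 and Mt2, which in 3 mice is a description only. Summed Kupffer cell markers were at 195 to 297 in anti-PD-1 livers and 190 to 425 in isotype controls, and 4 of 8 were apart, all lower after anti-PD-1 (background 9.98%). Summed hepatocyte markers, 7 of 8 being found, were at 60149 to 69223 in anti-PD-1 livers and at 61104 to 86282 in isotype controls, led by Alb in every library. Summed neutrophil markers were at 6.99 to 38.0 in anti-PD-1 livers and 8.35 to 9.04 in isotype controls, stellate cell markers at 775 to 1214 in anti-PD-1 livers and 775 to 1021 in isotype controls, and endothelial markers at 427 to 461 in anti-PD-1 livers and 440 to 468 in isotype controls. Cholangiocyte markers were at 79.4 to 139 in anti-PD-1 livers and 97.3 to 244 in isotype controls, and erythroid markers at 466 to 1365 in anti-PD-1 livers and 349 to 643 in isotype controls. Enterocyte markers, 5 of 8 being found and 3 past the filter, were at 758 to 1199 in anti-PD-1 livers and 1296, 1280 and 2138 in isotype controls. All RNA came from liver, so this sum is not read as intestinal RNA or set against Slc39a4. Pancreatic acinar markers summed to 5.39 to 8.12 in anti-PD-1 livers and 6.03 to 14.6 in isotype controls, mostly from Cela1, and Cpa1, Prss2, Pnlip, Ctrb1 and Cpb1 were at 0 in all libraries except isotype control replicate 2. The part of these markers in the values of the zinc genes was not tested.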

How the data were processed

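Per the labels' protocols, total RNA from liver was depleted of ribosomal RNA and made into directional libraries. Tools listed by the submitters' processing notes, without roles, are Bowtie2, edgeR, RSEM 1.3.0 and Trimmomatic 0.38, and the build is GRCm39. Each deposited signal value is a CPM of a TMM-scaled library: the scaling implied by the columns equalled edgeR's TMM factors on the recovered reads (0.93019 to 1.08698) and not its other factors. Every value was a whole multiple of the value of 1 read (100% of values, within 0.001 read), so whole reads were recovered, at 15528364 to 20779319 per library. They can be observed reads or rounded estimates. A limit of 3 reads is 0.144 to 0.2 on the deposited scale. Symbols were matched by gene identifier for 21407 of 21512 genes.

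Groups came from the sample titles. For replicates 2 and 3 of the anti-PD-1 group the treatment label reads Anti-PD-2 and Anti-PD-3 antibody. All 3 titles name PD-1, so all 3 were grouped as anti-PD-1, and the conflict between label and title stays unresolved. Nothing states that the labels' replicate numbers mark a litter or day. Same-numbered libraries deviated together, though weakly, from their group means (r = 0.15, 0.13 and 0.25), so the numbers were taken to pair them in an additional blocked fit. That pairing was read from the same values that the blocked fit uses and is not part of the stated design.

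Genes with a value of at least 1 in at least 3 libraries (13990) were tested on log2(value + 0.5) in R 4.3.3 by limma 3.58.1 (trended variance, two-sided), and adjusted p-values (Benjamini-Hochberg) were read at 0.05. This scale understates changes of low genes. edgeR 4.0.16 and DESeq2 1.42.0 on recovered reads were alternatives, and the tests were tried on simulated data. Named genes are the 8 members, other zinc transporters apart between groups or under an unadjusted p of 0.05, the 3 genes of smallest p in each list, and the 5 most like Mt1 or Mt2. Ppargc1a, Ddit4 and the single cell-type markers were named after their values were seen. The members and the lists were chosen with earlier results of these data known. The replicates are separate mice per the titles. No sequence coordinates were carried between builds.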

Additional observations from a re-analysis of the deposited data

How the results depend on the processing

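None of the 8 zinc genes was called under any setting run, and their lowest adjusted p was 0.116 with the replicate block and 0.0570 with the first library of each group removed, which was added once the values had been seen. Mt1, Mt2, Mtf1, Slc30a1, Slc39a4 and Slc39a14 kept their direction under every setting. With each library left out in turn, the log2 fold change ranged from 1.03 to 2.61 for Mt1, 1.84 to 3.79 for Mt2, -1.03 to 0.037 for Slc30a10 and -0.18 to 0.16 for Slc39a8, and the group difference in the log2 ratio of Mt2 to Mt1 from 0.85 (without isotype control replicate 1) to 1.53. Slc30a10 was also at 0.037 without both libraries numbered 1. Slc39a8 turned to -0.030 with quantile normalization and -0.018 with total-read scaling. The cause of these turns was not tested, beyond the libraries left out.

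The count of all genes called, 1 in the main test, was 0 by edgeR with TMM recomputed on tested genes, 256 by DESeq2, 40 with the replicate block, 0 to 30 with each library left out (30 when the first anti-PD-1 library was left out, 0 when the last was) and 133 without both libraries numbered 1. DESeq2 called 1 of 28 acute-phase, 1 of 15 glucocorticoid, 1 of 16 NRF2 and 3 of 12 immediate early genes where limma called 0. The DESeq2 share over all tested genes was 1.83%. The block, a pairing read from these same data, called 1 NRF2 and 1 immediate early gene, against 0.286% of all tested genes. It changed no other list count. With single libraries left out the glucocorticoid and immediate early lists each had 0 to 1 called gene (1 when the first anti-PD-1 library was left out). Without both libraries numbered 1 the glucocorticoid list had 2, Ddit4 lower and Zbtb16 higher after anti-PD-1. The immediate early list also had 2, Nfil3 and Ppargc1a, both higher. In that fit 133 of all 13990 tested genes were called. The cause of these changes in count was not tested. The size of the Mt2 fold change leans on isotype control replicate 1, which had 15 reads. The log2 fold change was 2.96 with that library and 1.84 without it.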
